A study of Mus musculus with 24 samples.

Results

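The response of subcutaneous fat to a high-fat diet was measured by RNA sequencing in mice designed to lack the mineralocorticoid receptor in fat cells. The comparison set 4 libraries of FMRKO mice on a high-fat diet (numbered 1 to 4) against 4 libraries of FMRKO mice on chow (numbered 1, 2, 3 and 5), chosen by their titles, which is 8 of the 24 libraries of the series. FMRKO mice are homozygous for a floxed mineralocorticoid receptor gene, Nr3c2, and carry Cre recombinase under the adiponectin (Adipoq) promoter, which is active in fat cells, so the other cells of the fat pad are not targeted. The tissue in all groups was inguinal white adipose tissue, the subcutaneous pad of the groin, of male mice. The same diet in control mice, which have the floxed alleles, also on both copies, and no Cre, was used beside it, with 4 libraries on chow (1, 2, 4 and 5) and 4 on the high-fat diet (1 to 4). The 8 libraries of corticosterone-treated mice were not compared. They entered the filter on low counts, the scaling of the libraries and the estimate of the spread. The sources used here give neither ages nor the fat content or length of the diet. Nor do the labels tie libraries to separate animals, and the p-values then cover only library-to-library spread, which may be technical.

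White fat stores surplus energy as triglyceride. On a fat-rich diet its cells enlarge, take up more fatty acid from the blood and release more leptin, the hormone that reports fat stores to the brain. The mineralocorticoid receptor is a nuclear receptor that binds aldosterone and, where the enzyme that inactivates them is scarce, glucocorticoids. In fat it has been linked to adipocyte differentiation, inflammation and the metabolic effects of obesity. Sterol regulatory element-binding proteins (SREBPs) are the transcription factors that drive genes of cholesterol and fatty acid synthesis, and INSIG proteins hold them in the endoplasmic reticulum when sterols are plentiful.

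Total counts ran from 17925109 to 29010546 per library on chow and from 26431823 to 30741641 on the high-fat diet, and 19717 genes passed the filter on low counts. Levels are given in CPM, read counts relative to the library size after TMM scaling, per library or as mean ± SD (n = 4). Log2 fold changes (high-fat diet over chow, with the standard error after ±) and adjusted p-values are from edgeR's quasi-likelihood test with Benjamini-Hochberg adjustment over all genes tested, with a threshold of 0.05, and genes said to have risen or fallen passed it. Titles of chow libraries begin with a running number, which titles of high-fat diet libraries lack. Whether this marks a batch is not stated, and if it does, batch and diet cannot be told apart in either genotype.

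Several libraries carried transcripts of neighbouring tissue. Over 21 lymphocyte and lymph node genes the mean log2 CPM was 5.61 and 4.66 in chow FMRKO 1 and 3 and 3.60 and 4.99 in high-fat diet FMRKO 1 and 4, against 0.20 and 0.41 in chow FMRKO 2 and 5 and 0.16 and 0.24 in high-fat diet FMRKO 2 and 3. Each diet group thus held a pair of libraries with these transcripts and a pair nearly without them, and none of the 21 genes passed the test. Over 20 skeletal muscle genes the mean was 8.81 in chow FMRKO 5 while the other 7 libraries had -0.12 to 1.17. The contractile gene Myh4 measured 5907 CPM in chow FMRKO 5, was listed at 0.140, 0.195 and 0 in the other chow libraries and reached at most 1.48 on the high-fat diet. Results that rest on these libraries are given with and without them. The adipocyte genes did not separate the diets: their mean log2 CPM was 9.56 to 10.41 on chow against 9.63 to 10.38 on the high-fat diet. Fewer cells of a type and less RNA per cell cannot be told apart in such bulk tissue.

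**Figure D1:**
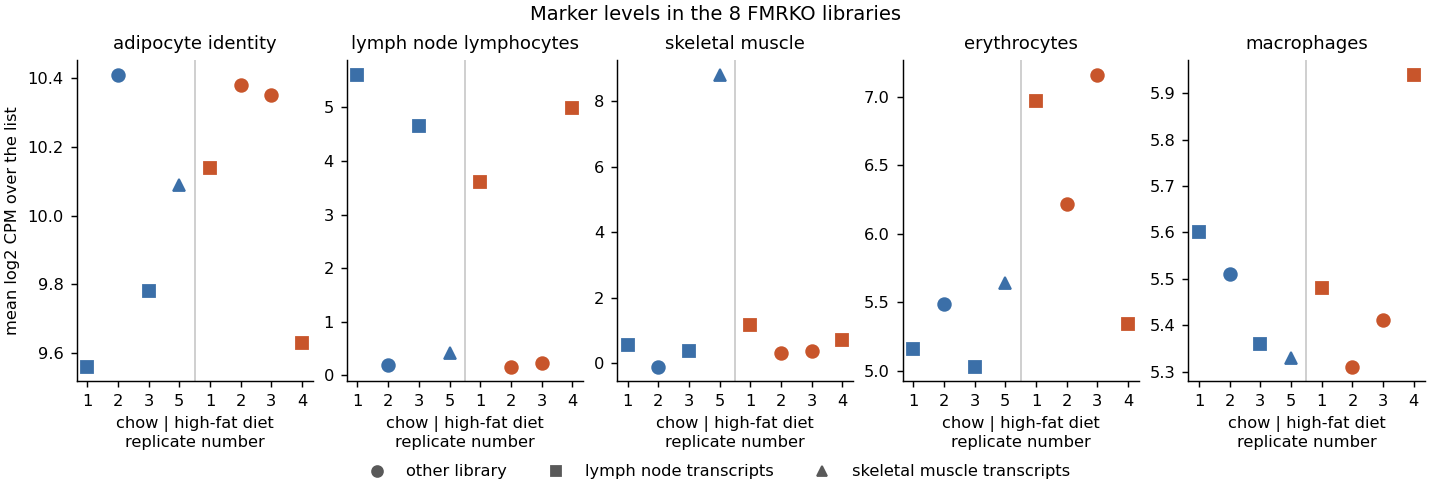
Mean log2 CPM over 5 marker lists (y axis; each panel has its own scale) in each FMRKO library, by replicate number (x axis), chow in blue and high-fat diet in orange; squares are the libraries with lymph node transcripts and the triangle the library with muscle transcripts. Lymph node markers are at 3.60 to 5.61 in a pair of libraries of each diet, muscle markers at 8.81 in chow FMRKO 5 alone, and erythrocyte markers are highest in high-fat diet FMRKO 1 to 3.

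Nr3c2 itself (ENSMUSG00000031618, GRCm38 chromosome 8, 76899442 to 77245012, plus strand) measured 11.3, 22, 17.7 and 25.8 CPM in the chow FMRKO libraries and 14.3, 15.7, 15.4 and 12.7 in those on the high-fat diet. The groups overlapped, and the log2 fold change of -0.40 ± 0.20 did not pass the test (adjusted p = 0.152). In control mice the gene measured 23.5 ± 4.56 CPM on chow against 20.8 ± 2.95 on the high-fat diet, with 19.2 ± 6.23 and 14.5 ± 1.35 in FMRKO mice on the same diets. These counts cover the whole gene and all cells of the pad, and loss of the receptor from fat cells was not tested. Nr3c1, the gene of the glucocorticoid receptor, was the only 1 of 10 genes of corticosteroid receptors, their chaperones and enzymes that passed the test. Over all genes 24.4% passed. Nr3c1 fell from 185 ± 34.5 to 144 ± 9.21 CPM, a log2 fold change of -0.36 ± 0.12 (adjusted p = 0.025), and the call was lost without chow FMRKO 2 or chow FMRKO 5. Hsd11b1, whose enzyme regenerates active glucocorticoid, had a log2 fold change of -0.64 ± 0.25 (adjusted p = 0.064).

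The test called 4813 of 19717 genes between the diets (24.4%). Of these, 3002 rose (15.2%) and 1811 fell (9.18%), and 647 rose (3.28%) and 520 fell (2.64%) by at least 2-fold. In 2665 genes all 4 high-fat diet libraries lay above all 4 chow libraries (13.5%), and in 1750 all lay below (8.88%). The median log2 fold change over all genes was -0.06. Of the 520 genes that fell by at least 2-fold, 276 had their highest level in chow FMRKO 5 and 84 were there at least 4 times as high as in any other chow library. Without that library 320 of the 520 genes kept their call, and 29 had the opposite sign. Of the 647 genes that rose by at least 2-fold, 612 kept their call without it. Leaving out high-fat diet FMRKO 3 lowered the counts to 1921 genes higher and 1389 lower.

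**Figure D2:**
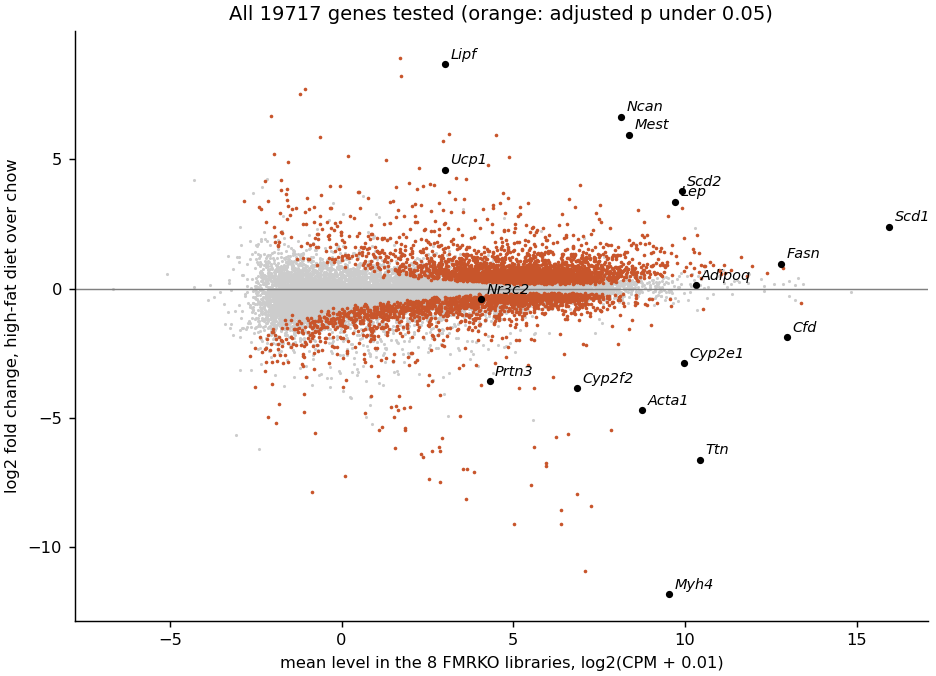
Log2 fold change between the diets in FMRKO mice (y axis) against the mean level in the 8 libraries (x axis, log2 of CPM plus 0.01) for all 19717 genes tested, orange where the adjusted p was under 0.05. Scd1 is the most abundant of the labelled genes, and Myh4, Ttn and Acta1 at the bottom are muscle genes carried by 1 chow library.

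Of a list of 20 genes of fat expansion and secreted factors of fat, 13 rose, 2 fell and 5 did not pass, with a median log2 fold change of 1.24. Over all genes 15.2% rose and 9.18% fell. The risers lay between 1.01 and 5.95, and in each of them all 4 high-fat diet libraries were above all 4 chow libraries. That held for 13.5% of all genes tested and for 611 of the 647 genes called at least 2-fold higher.

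Mest, an imprinted gene long used as a marker of fat expansion (chromosome 6, 30723547 to 30748455), measured 11.4, 10.6, 8.66 and 11.6 CPM on chow against 498, 655, 1017 and 439 on the high-fat diet. Its log2 fold change of 5.95 ± 0.45 (adjusted p = 3.0e-08) is a 61.8-fold rise. The chow libraries were close together, and the high-fat diet libraries spread over a wider range with FMRKO 3 at the top. Lep, which encodes leptin, measured 97.5, 131, 186 and 176 CPM on chow against 1460, 1715, 1880 and 1007 on the high-fat diet, a 10.3-fold rise (log2 3.36 ± 0.29, adjusted p = 1.1e-07). Sfrp5, a secreted binder of Wnt ligands, was at 15.4, 13.4, 10.7 and 18.1 CPM on chow against 190, 281, 269 and 186 on the high-fat diet, a log2 fold change of 4.01 ± 0.28. Each of these 3 genes separated the diets in every library, including those with lymph node or muscle transcripts.

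Trp53inp2, which takes part in autophagy, rose by 3.13 ± 0.24 on the log2 scale, and Npr3, the clearance receptor of natriuretic peptides, by 2.81 ± 0.22. Npr3 measured 179, 141, 250 and 164 CPM on chow against 1301, 1504, 1463 and 871 on the high-fat diet. Angiotensinogen (Agt), the precursor of the angiotensins, fell from 27.2, 40.0, 17 and 45.4 CPM to 9.39, 9.07, 5.88 and 8.19, a log2 fold change of -1.99 ± 0.50 (adjusted p = 0.006). Nedd4l, a ubiquitin ligase for the epithelial sodium channel, rose by 0.47 ± 0.10. On the mineralocorticoid-linked and renin-angiotensin list, which holds both, 2 of 13 genes rose and 1 fell. These counts are near the shares of all genes (15.2% and 9.18%).

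The list of adipocyte identity genes moved less than the fat expansion list. Of 18 genes 5 rose, 2 fell and 11 did not pass, where 15.2% of all genes rose and 9.18% fell. The median was 0.40, against -0.06 over all genes. Adipoq, the gene of adiponectin whose promoter drives the Cre, measured 872 to 1579 CPM on chow against 1012 to 1529 on the high-fat diet (log2 0.14 ± 0.21, adjusted p = 0.672), and Pparg, the master regulator of fat cells, had a log2 fold change of -0.01 ± 0.24 (adjusted p = 0.991). Gpd1, which supplies glycerol phosphate for triglyceride, rose from 340, 608, 431 and 498 CPM to 869, 967, 1306 and 728 (log2 1.04 ± 0.24, adjusted p = 0.003). Cfd, the gene of adipsin, fell further than any other called member. It measured 9326, 17600, 10470 and 13230 CPM on chow against 4477, 4502, 3062 and 1768 on the high-fat diet, a 3.67-fold fall (log2 -1.87 ± 0.33, adjusted p = 3.3e-04).

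**Figure D3:**
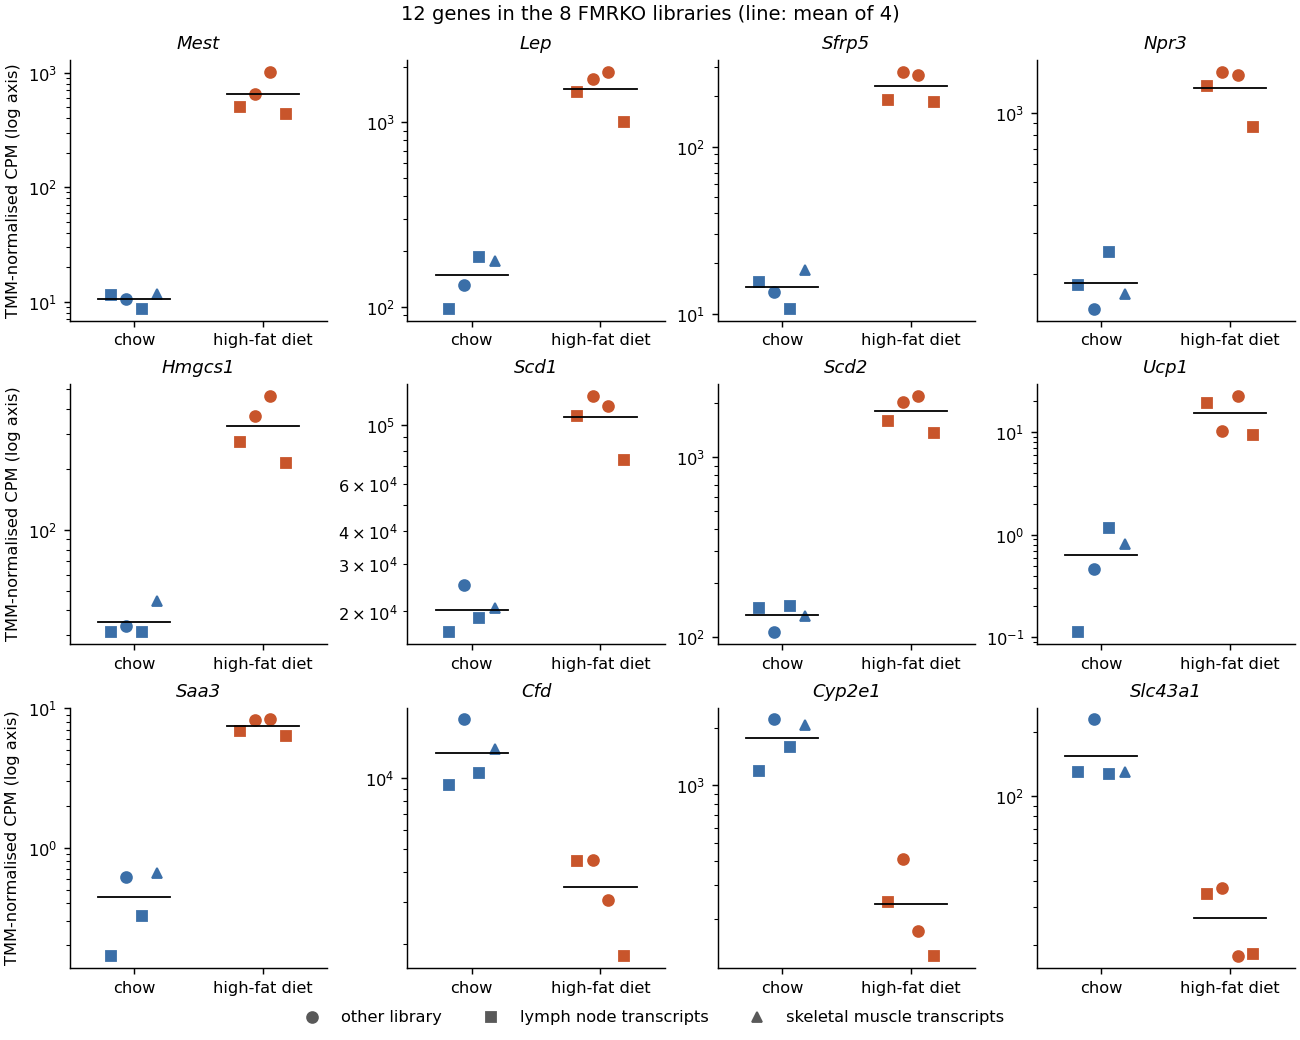
TMM-normalised CPM (y axis, log scale, separate for each gene) of 12 genes in the 4 chow and 4 high-fat diet libraries of FMRKO mice (x axis; black lines are group means). Squares mark libraries with lymph node transcripts and triangles the library with muscle transcripts; for all 12 genes the diets do not overlap, with 9 genes higher and 3 lower on the high-fat diet.

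Cholesterol synthesis was the list with the highest share of called members. Of its 20 genes 18 rose and none fell, against 15.2% of all genes, with a median log2 fold change of 1.67 and a range of 0.63 to 3.24 among the risers. Leaving out the libraries with lymph node transcripts, or those with muscle transcripts, again gave 18. In control mice the same 18 genes rose, with a median of 1.67.

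The steps of the pathway did not move equally. Hmgcs1, which makes HMG-CoA at its start, rose from 30.9, 33.3, 31.0 and 44.5 CPM to 274, 368, 466 and 215, a 9.48-fold change (log2 3.24 ± 0.32, adjusted p = 4.5e-07).

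Later in the pathway Fdps, which makes farnesyl diphosphate, rose by 2.28 ± 0.21, and Lss, which closes the sterol rings, from 16.6, 13.5, 16.3 and 14.4 CPM to 62.3, 82.9, 107 and 58.9 (log2 2.35 ± 0.18, adjusted p = 3.0e-08). Sqle, the squalene epoxidase, was at 5.80 to 7.15 CPM on chow against 13.8 to 22.5 on the high-fat diet (log2 1.62 ± 0.15). The late enzymes Nsdhl (log2 2.18 ± 0.20) and Sc5d (1.98 ± 0.21) rose as well. Fdft1, which makes squalene, did not pass (log2 0.40 ± 0.20, adjusted p = 0.167).

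Among 18 genes that control SREBPs or handle sterols 5 rose and none fell, against 15.2% and 9.18% of all genes. Insig1, an SREBP target that holds SREBPs back, measured 63.1, 124, 70.5 and 90.3 CPM on chow against 612, 776, 978 and 478 on the high-fat diet (log2 3.03 ± 0.28, adjusted p = 2.5e-07). Npc2, which carries cholesterol out of lysosomes, rose by 1.31 ± 0.13. Srebf2, the SREBP of the cholesterol pathway, did not pass the test (log2 -0.11 ± 0.16, adjusted p = 0.650), and the median of this list was 0.06.

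Because these genes moved together, the windows before their start sites were searched for the SREBP site TCACNCCAC and the CCAAT box bound by NF-Y, a factor known to act beside SREBPs. RefSeq promoters of GRCm38.p6, from 250 bases before to 50 after the start, were at hand for 15 of the 20 genes. The SREBP letters were in 1 of the 15 genes, Hmgcs1, and in 1.44% of all 27025 genes with a promoter. The CCAAT letters, on either strand, were in 14 of the 15 genes and in 41.1% of all genes. The 200 bases before the start are shown for the 4 genes with the largest rises among those with a promoter window and a match, 5′ to 3′ in the direction of the gene, with matches to either motif in capitals (ATTGG is CCAAT on the other strand). Capitals in Hmgcs1 (chr13:119690151-119690350, plus strand) mark the SREBP site 137 bases before the start and CCAAT boxes at 176 and 45. Lss (chr10:76531405-76531604, plus strand), Nsdhl (chrX:72918321-72918520, plus strand) and Sc5d (chr9:42264301-42264500, minus strand) hold CCAAT boxes alone.
Hmgcs1: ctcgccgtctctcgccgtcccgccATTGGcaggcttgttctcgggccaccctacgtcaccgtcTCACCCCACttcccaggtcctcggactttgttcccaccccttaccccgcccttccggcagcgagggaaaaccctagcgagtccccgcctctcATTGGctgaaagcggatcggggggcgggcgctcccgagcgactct
Lss: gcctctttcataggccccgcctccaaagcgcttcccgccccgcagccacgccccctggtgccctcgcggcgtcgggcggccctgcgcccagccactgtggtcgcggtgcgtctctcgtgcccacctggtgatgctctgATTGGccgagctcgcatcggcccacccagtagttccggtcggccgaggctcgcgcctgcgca
Nsdhl: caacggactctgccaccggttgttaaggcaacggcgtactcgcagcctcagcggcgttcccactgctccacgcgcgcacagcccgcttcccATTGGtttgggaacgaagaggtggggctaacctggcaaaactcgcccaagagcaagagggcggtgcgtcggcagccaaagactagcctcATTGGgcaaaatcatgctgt
Sc5d: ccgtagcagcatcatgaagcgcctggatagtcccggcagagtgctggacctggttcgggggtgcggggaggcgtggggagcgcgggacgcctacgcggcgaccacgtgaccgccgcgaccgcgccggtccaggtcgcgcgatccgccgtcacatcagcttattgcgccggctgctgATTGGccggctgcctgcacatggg
The motifs do not overlap in these windows. A match is a string of letters and not evidence of binding.

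Many genes of fatty acid synthesis rose next to those of sterol synthesis. Of 22 genes of de novo lipogenesis 14 rose, 1 fell and 7 did not pass, where 15.2% of all genes rose and 9.18% fell. The median log2 fold change was 0.85. Scd1, the stearoyl-CoA desaturase that makes monounsaturated fatty acids, measured 16690, 25050, 18980 and 20640 CPM on chow against 107400, 128400, 117700 and 73620 on the high-fat diet (log2 2.39 ± 0.35, adjusted p = 4.3e-05). It took 2.06% to 2.65% of all counts on chow against 7.63% to 11.3% on the high-fat diet. Its relative Scd2 was far lower per length, at 24.3 RPKM on chow against 330 on the high-fat diet against 4210 and 22100 RPKM for Scd1, but rose more: from 145, 106, 148 and 130 CPM to 1596, 2042, 2202 and 1367 (log2 3.77 ± 0.23, adjusted p = 3.8e-09).

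Fasn, the fatty acid synthase, measured 4862, 5440, 5071 and 4096 CPM on chow against 8691, 11030, 11260 and 6946 on the high-fat diet (log2 0.96 ± 0.30, adjusted p = 0.021). The call on Fasn was lost without the muscle libraries, chow FMRKO 5 among them, and without high-fat diet FMRKO 2 or 3. Its log2 fold change was 0.83 without the muscle libraries and 0.82 to 1.03 with single FMRKO libraries left out. Acss2, which makes acetyl-CoA from acetate, rose by 2.58 ± 0.26, Acly, which makes it from citrate, by 0.98 ± 0.25, and the NADPH-producing enzymes Pgd and Me1 by 1.62 ± 0.14 and 1.54 ± 0.25. Acaca, the acetyl-CoA carboxylase between them and Fasn, had a log2 fold change of -0.32 ± 0.22 (adjusted p = 0.315). Mlxipl, the gene of the carbohydrate-sensing factor ChREBP, was the 1 member that fell, by 0.99 ± 0.27 on the log2 scale, with 83.9 to 192 CPM on chow against 40.9 to 91.4 on the high-fat diet.

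Of 24 genes of triglyceride synthesis, lipid droplets and lipolysis 11 rose and none fell, against 15.2% and 9.18% of all genes. Dgat2, which makes the last step of triglyceride synthesis, rose from 366, 627, 398 and 595 CPM to 1917, 2326, 2634 and 1596 (log2 2.09 ± 0.32, adjusted p = 7.1e-05). Agpat2 rose by 2.06 ± 0.31, and the droplet coat gene Plin2 from 147, 272, 137 and 183 CPM to 465, 594, 814 and 472 (log2 1.67 ± 0.27). The main lipases did not pass: Pnpla2, the gene of ATGL, had -0.20 ± 0.22 (adjusted p = 0.550) and Lipe, the gene of hormone-sensitive lipase, 0.33 ± 0.22 (adjusted p = 0.309).

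In fatty acid uptake 9 of 12 genes rose and 1 fell, against 15.2% and 9.18% of all genes. Fabp5, a fatty acid carrier, measured 29.9, 41.1, 31.3 and 42.5 CPM on chow against 124, 138, 222 and 117 on the high-fat diet (log2 2.06 ± 0.21, adjusted p = 9.6e-07). Angptl4, an inhibitor of lipoprotein lipase, rose by 0.97 ± 0.19 and the VLDL receptor gene Vldlr by 1.17 ± 0.24. Lpl, the lipoprotein lipase itself, was at 3226, 5693, 3583 and 4606 CPM on chow against 5750, 7585, 7703 and 5238 on the high-fat diet, close to the threshold (log2 0.62 ± 0.22, adjusted p = 0.046), and lost its call without any of 6 single libraries.

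**Figure D4:**
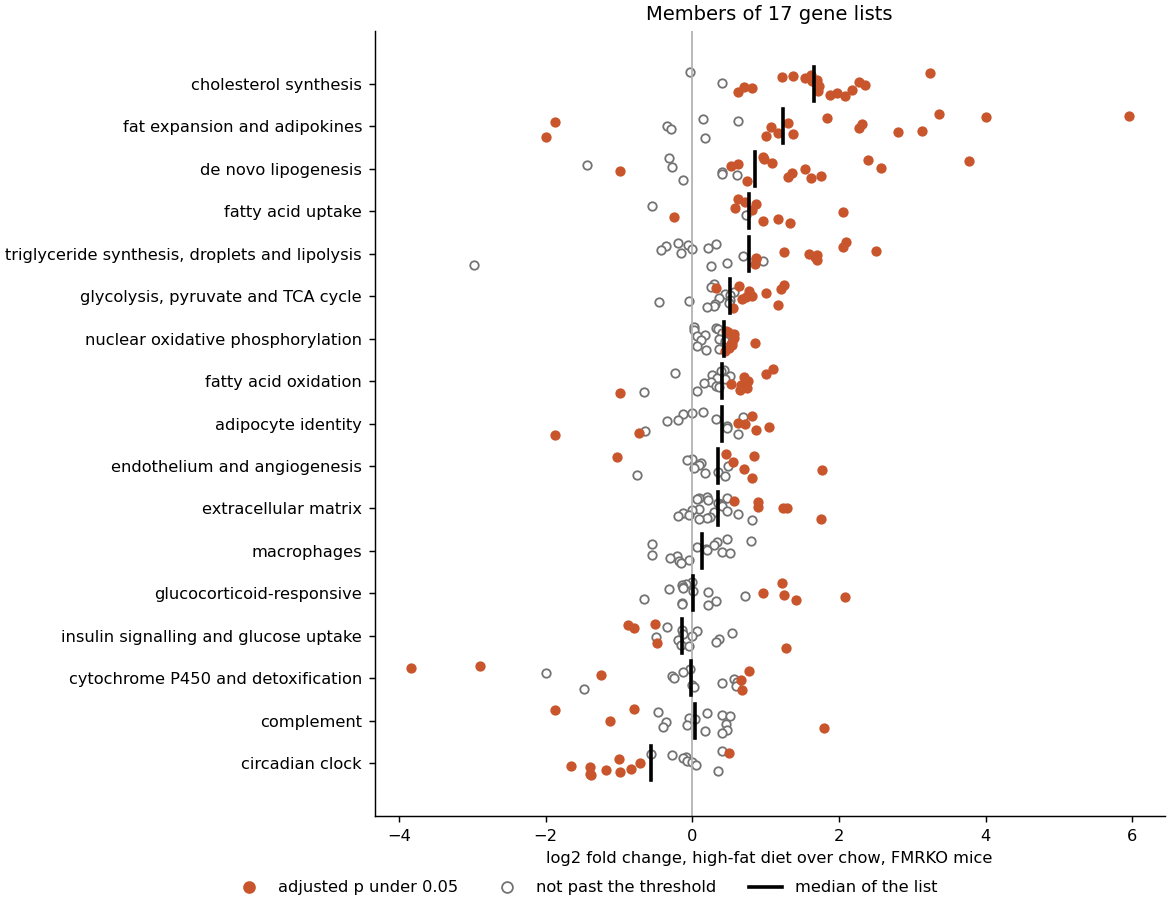
Log2 fold change between the diets in FMRKO mice (x axis) of every tested member of 17 gene lists (rows), orange where the adjusted p was under 0.05, with the list's median as a black bar. Cholesterol synthesis has 18 of 20 members above 0 and called, and the circadian clock list has 9 of 19 members called below 0.

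Genes of energy metabolism moved by smaller steps. In glycolysis, pyruvate metabolism and the TCA cycle 11 of 24 genes rose and none fell, with a median of 0.52. Over all genes 15.2% rose and 9.18% fell. Pfkl, a phosphofructokinase, was at 64.6 to 67.3 CPM in the 4 chow libraries and 115 to 193 on the high-fat diet (log2 1.21 ± 0.16, adjusted p = 1.6e-05), and Idh3a of the TCA cycle rose by 1.17 ± 0.24. Of 22 fatty acid oxidation genes 8 rose and 1 fell, against 15.2% and 9.18% of all genes. Cpt1a, which admits fatty acids to mitochondria, measured 78.8, 72.8, 67.4 and 81.3 CPM on chow against 155, 153, 182 and 152 on the high-fat diet (log2 1.10 ± 0.16, adjusted p = 3.9e-05). Ppargc1a, the coactivator of mitochondrial biogenesis, was the member that fell (log2 -0.99 ± 0.29, adjusted p = 0.017). Its call was lost without chow FMRKO 2, with -1.14 to -0.83 across single FMRKO libraries left out.

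The 25 nuclear genes of oxidative phosphorylation all had log2 fold changes above 0, with a median of 0.43. Of them 10 passed the test, where 15.2% of all genes rose. That count depended on single libraries: it was 4 without the lymph node libraries, 4 without the muscle libraries and 2 to 13 with single FMRKO libraries left out. Cycs, the gene of cytochrome c, rose from 45.6, 61.5, 42.3 and 45.3 CPM to 78.2, 90.1, 107 and 79.6 (log2 0.86 ± 0.19, adjusted p = 0.002). Of the 13 protein genes of the mitochondrial genome none rose and 1 fell, against 15.2% and 9.18% of all genes.

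Of 14 thermogenic genes 5 rose and 2 fell, against 15.2% and 9.18% of all genes. The 2 that fell, Ppargc1a among them, had log2 fold changes of -0.99 and -0.53. In all, 5 of the 14 members had log2 fold changes below 0. Ucp1, the uncoupling protein of brown and beige fat, measured 0.112, 0.467, 1.16 and 0.810 CPM on chow against 19.2, 10.2, 22.6 and 9.42 on the high-fat diet (log2 4.60 ± 0.98, adjusted p = 0.002). Per length, Ucp1 stood at 9.34 RPKM on the high-fat diet, against 962 RPKM for Adipoq. Otop1, a proton channel of brown fat, rose by 2.36 ± 0.65 (adjusted p = 0.011) and lost its call without the lymph node libraries. Cidea had a log2 fold change of 0.97 ± 0.54 (adjusted p = 0.209).

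Of 17 genes of insulin signalling and glucose uptake 4 fell and 1 rose, against 9.18% and 15.2% of all genes, with a median of -0.14. Irs2, an insulin receptor substrate, fell from 101, 180, 110 and 171 CPM to 77.4, 99.7, 86.7 and 60.4 (log2 -0.79 ± 0.20, adjusted p = 0.007), and Igf1r, the IGF1 receptor, by 0.48 ± 0.10. Grb14, an adaptor that inhibits the insulin receptor, rose by 1.28 ± 0.34 (adjusted p = 0.008). Slc2a4, the insulin-regulated glucose transporter GLUT4, had -0.35 ± 0.28 (adjusted p = 0.399). Among 21 genes of branched-chain amino acid breakdown 2 fell and 1 rose, near or below the shares of all genes (9.18% and 15.2%). Ppm1k, the phosphatase that activates the pathway's dehydrogenase, had a log2 fold change of -1.36 ± 0.14 (adjusted p = 1.1e-06), and Bcat2, its first enzyme, -0.94 ± 0.22. Of 14 adrenergic and natriuretic signalling genes 4 rose, led by Npr3, against 15.2% of all genes. Adrb3, the main adrenergic receptor of mouse fat cells, had -0.65 ± 0.38 (adjusted p = 0.244).

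The genes that fell furthest included enzymes of xenobiotic metabolism. Cyp2f2 measured 107, 280, 188 and 298 CPM on chow against 21.8, 19.6, 11.8 and 7.79 on the high-fat diet, a 14.3-fold fall (log2 -3.84 ± 0.51, adjusted p = 1.8e-05). Cyp2e1, the ethanol-inducible cytochrome P450, fell from 1189, 2216, 1591 and 2062 CPM to 246, 412, 171 and 127 (log2 -2.89 ± 0.37, adjusted p = 1.1e-05). Of 18 cytochrome P450 and detoxification genes 3 fell and 3 rose, against 9.18% and 15.2% of all genes, with a median of -0.02. Slc43a1, an amino acid transporter, measured 130, 228, 127 and 129 CPM on chow against 34.7, 36.8, 17.7 and 18.2 on the high-fat diet (log2 -2.51 ± 0.25, adjusted p = 6.8e-07). Prtn3, a serine protease gene that lies beside Cfd on chromosome 10 (79874476 to 79883174, with Cfd at 79890853 to 79892656), fell from 17.9, 40.7, 24.4 and 63.8 CPM to 3.69, 5.07, 1.77 and 1.66 (log2 -3.59 ± 0.43, adjusted p = 4.7e-06).

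Several genes that rose furthest were low on chow. Ncan, which encodes a proteoglycan best known from brain, measured 5.63, 3.47, 6.95 and 6.18 CPM on chow against 423, 530, 850 and 421 on the high-fat diet (log2 6.64 ± 0.57, adjusted p = 1.0e-07). Slc5a7, a choline transporter, went from 0.101 to 1.16 CPM on chow to 33.5 to 55.0 on the high-fat diet (log2 5.92 ± 0.59), and Tph2, a tryptophan hydroxylase, from 0.194 to 0.507 to between 7.67 and 28.2 (log2 5.96 ± 0.64). Lipf, a gastric lipase gene, was listed at 0.056, 0, 0.065 and 0 CPM on chow and measured 9.50, 12.6, 27.2 and 15.3 on the high-fat diet. With so few counts on chow its fitted fold change depends on the fit's prior count and is left out. Tuba1a, an alpha-tubulin with close copies in the genome, whose counts are therefore uncertain, rose from 150, 143, 148 and 99.5 CPM to 1608, 1821, 2368 and 1297. Pkd2l1, an ion channel gene, passed the test on 2 libraries only, with 17.6 and 7.95 CPM in high-fat diet FMRKO 2 and 3 and at most 0.188 in the other 6.

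The circadian clock list had more members below chow than above. Of 19 genes 9 fell (47.4%, against 9.18% of all genes) and 1 rose, with a median of -0.56. The clock output factor Dbp measured 46.9, 91.8, 70.4 and 91.2 CPM on chow against 32.5, 30.4, 31.3 and 19.3 on the high-fat diet (log2 -1.40 ± 0.26, adjusted p = 5.3e-04). Bhlhe41, a repressor of E-box genes, fell from 40.0, 74.3, 56.1 and 71.0 CPM to 25, 23.7, 25.1 and 18 (log2 -1.40 ± 0.20, adjusted p = 3.5e-05). Ciart, a clock repressor, fell by 1.38 ± 0.36 on the log2 scale, while Arntl, the gene of BMAL1, had 0.40 ± 0.27 (adjusted p = 0.307). No source used here gives the hours at which tissue was taken, and a shift in clock time between the groups was not tested.

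The E-box CACGTG, the letters bound by the CLOCK and BMAL1 pair, was in the RefSeq promoter window of 5 of 16 clock genes with one (Per1, Cry1, Tef, Bhlhe41 and Ciart) and in 8.09% of all genes. Of these, Bhlhe41, Ciart and Tef fell. Dbp and other clock genes that fell had a window without the E-box. Windows of the 200 bases before the start are shown for the genes with the largest falls among those with a window and a match. They are Bhlhe41 (chr6:145865421-145865620, minus strand) and Ciart (chr3:95882229-95882428, minus strand), where the capitals mark the E-box.
Bhlhe41: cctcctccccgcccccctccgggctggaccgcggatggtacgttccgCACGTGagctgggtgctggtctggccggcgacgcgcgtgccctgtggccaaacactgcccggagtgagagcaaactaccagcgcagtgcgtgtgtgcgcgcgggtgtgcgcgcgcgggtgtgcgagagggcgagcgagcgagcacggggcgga
Ciart: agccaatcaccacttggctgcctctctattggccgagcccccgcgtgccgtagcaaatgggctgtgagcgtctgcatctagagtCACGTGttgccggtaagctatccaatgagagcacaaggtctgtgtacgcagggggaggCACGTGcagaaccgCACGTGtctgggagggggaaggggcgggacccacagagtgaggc
Ciart holds 3 copies, 116, 58 and 44 bases before the start, and Bhlhe41 holds 1, at 153.

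Of 19 glucocorticoid-responsive genes 5 rose and none fell, against 15.2% and 9.18% of all genes, with a median of 0.01. Tsc22d3, the gene of GILZ, rose from 63.0, 69.0, 94.2 and 104 CPM to 214, 198, 180 and 185 (log2 1.23 ± 0.25, adjusted p = 0.001), and Cdkn1a, the cell cycle inhibitor p21, from 31.6, 23.9, 29.6 and 14.5 to 111, 135, 114 and 63.1 (log2 2.08 ± 0.28). Fkbp5, a chaperone gene that responds to glucocorticoid in many tissues, measured 88.6, 121, 127 and 60.0 CPM on chow against 126, 112, 81.8 and 73.0 on the high-fat diet (log2 -0.01 ± 0.31, adjusted p = 0.980). Cdkn1a is also known as a p53 target and Angptl4, another of the 5, as a target of fatty acid signals.

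In the stroma, 6 of 27 extracellular matrix genes rose and none fell, with a median of 0.35. Over all genes 15.2% rose and 9.18% fell. Bgn, the gene of biglycan, measured 210, 234, 242 and 218 CPM on chow against 826, 857, 821 and 541 on the high-fat diet (log2 1.75 ± 0.25, adjusted p = 3.2e-05). Sparc, a matrix-binding protein of growing fat, rose from 1573, 2193, 1725 and 2080 CPM to 3983, 4575, 5777 and 3555 (log2 1.24 ± 0.19), and Lox, which crosslinks collagen, by 1.29 ± 0.23. The basement membrane collagen gene Col4a2 rose by 0.90 ± 0.18, while the fibrillar collagen gene Col1a1 had 0.20 ± 0.39 (adjusted p = 0.747). Among growth factors Fgf1, which fat makes on feeding, rose from 8.02 to 12.4 CPM on chow to 44.0 to 67.6 (log2 2.51 ± 0.19, adjusted p = 2.5e-08).

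Of 17 endothelial and angiogenic genes 6 rose and 1 fell, against 15.2% and 9.18% of all genes. Cldn5, a tight junction gene of blood vessels, measured 30.9, 41.0, 33.3 and 24.6 CPM on chow against 112, 137, 121 and 72.7 on the high-fat diet (log2 1.77 ± 0.24, adjusted p = 2.3e-05), and Cdh5, the gene of VE-cadherin, rose by 0.84 ± 0.17. Vegfa, the main growth factor of vessels, was the member that fell, from 232, 452, 347 and 455 CPM to 179, 223, 201 and 128 (log2 -1.02 ± 0.21, adjusted p = 9.9e-04). Red cell transcripts were higher too: 5 of 6 erythrocyte genes rose, against 15.2% of all genes. In 1 of the 6 all 4 high-fat diet libraries lay above all 4 chow libraries, as in 13.5% of all genes. Their mean log2 CPM was 5.03 to 5.64 on chow against 6.97, 6.22, 7.16 and 5.34 on the high-fat diet. High-fat diet FMRKO 4, at 5.34, lay within the chow range. Its Cldn5, at 72.7 CPM, was the lowest of the high-fat diet libraries and above every chow library. In control mice 4 genes of the endothelial list rose and 3 fell, and 0 erythrocyte genes rose, where 15.3% of all genes rose and 13.9% fell. Hba-a1, an alpha-globin gene with a near-identical copy, measured 213 to 349 CPM on chow against 1139, 580, 1310 and 366 on the high-fat diet. The part of blood content in the endothelial result was not tested.

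Macrophage genes gave no call. None of 16 macrophage genes passed the test, 2 had an unadjusted p under 0.05, and the median was 0.13. DESeq2 called none of them either. Adgre1, the gene of F4/80, measured 25.4, 41.8, 23.5 and 34.0 CPM on chow against 35.6, 43.2, 45.4 and 48.7 on the high-fat diet (log2 0.47 ± 0.32, adjusted p = 0.308). Of 12 genes of lipid-associated macrophages 2 rose, near the 15.2% of all genes, with a median of 0.74. Ctsl, a lysosomal protease gene that other cells express too, rose from 117, 149, 119 and 139 CPM to 299, 404, 451 and 323 (log2 1.49 ± 0.21), and Trem2, the receptor that defines these cells, had 1.34 ± 0.76 (adjusted p = 0.219).

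Among 19 inflammatory mediators 2 rose, a share below the 15.2% of all genes, and none fell. Saa3, an acute-phase gene that fat cells also make, measured 0.167, 0.623, 0.323 and 0.658 CPM on chow against 6.86, 8.21, 8.29 and 6.31 on the high-fat diet (log2 4.09 ± 0.95, adjusted p = 0.003). All 4 high-fat diet libraries lay above the highest chow library, and the call was lost without the lymph node libraries, which leaves 2 libraries a group. Tnf measured 6.64, 1.21, 3.56 and 0.456 CPM on chow against 2.36, 0.903, 1.17 and 4.39 on the high-fat diet (log2 -0.43 ± 0.75, adjusted p = 0.722), and was highest in the lymph node libraries of each diet. None of 14 interferon-stimulated genes passed the test and 0 had an unadjusted p under 0.05 (DESeq2 called none). In the complement list 3 of 17 genes fell and 1 rose, against 9.18% and 15.2% of all genes. C3, the central component, fell from 1607, 1855, 1784 and 2280 CPM to 1111, 992, 911 and 1313 (log2 -0.80 ± 0.22, adjusted p = 0.010), C2 fell by 1.12 ± 0.20 on the log2 scale, and Cd59a, which blocks the membrane attack complex, rose by 1.79 ± 0.21.

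The test of whether the diet acted differently in FMRKO than in control mice called 0 of 19717 genes (0.0%) with edgeR and 6 genes with DESeq2. With edgeR 1939 genes had an unadjusted p under 0.05. That number was 1152 without the lymph node libraries, 2832 without the muscle libraries and 1406 with lymph node and muscle transcripts as covariates. In control mice 3013 genes rose (15.3%) and 2745 fell (13.9%). Of the 4813 genes called in FMRKO mice, 3291 (68.4%) were also called in control mice, which is 57.2% of the control calls, and 3288 of these had the same direction. The remaining 1522 genes called in FMRKO mice are not shown to be particular to them, since edgeR called no difference.

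Among genes with a mean of at least 1 CPM, the 6 with the smallest p for the difference had adjusted p-values of 0.147 to 0.481. They included Bclaf3, a transcription-associated gene that fell by 0.41 ± 0.09 on the log2 scale in FMRKO mice and rose by 0.29 ± 0.09 in control mice, and Igfbp7, a secreted binder of insulin-like growth factors, with -0.19 ± 0.11 and -0.86 ± 0.11. The FMRKO call on Bclaf3 was lost without the lymph node libraries.

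Across all 19717 genes the log2 fold changes of the genotypes, which share no library, had a Pearson correlation of 0.31 and a Spearman correlation of 0.46. This describes genes, which are not independent replicates. Pearson's r was 0.26 without the muscle libraries, 0.33 without the lymph node libraries and 0.61 with covariates for both kinds of transcript. Mest had 5.95 ± 0.45 in FMRKO and 5.97 ± 0.45 in control mice, Lep 3.36 ± 0.29 and 3.41 ± 0.29, Hmgcs1 3.24 ± 0.32 and 3.27 ± 0.32, and Scd1 2.39 ± 0.35 and 2.23 ± 0.34. Other genes were further apart, among them Prtn3, with -3.59 ± 0.43 in FMRKO and -4.85 ± 0.46 in control mice, and Myh4, with -11.78 and 3.07. Saa3 had 0.41 ± 0.81 in control mice (difference 3.68, unadjusted p = 0.007), and Slc43a1 had -3.92 ± 0.27 (difference 1.41, unadjusted p = 5.5e-04). Cfd fell by 3.22 ± 0.35 on the log2 scale in control mice, a difference of 1.35 from FMRKO mice (unadjusted p = 0.008). None of these differences passed adjustment with edgeR.

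In the extracellular matrix list the median was 0.35 in FMRKO and -0.43 in control mice. In control mice 4 of its 27 genes rose and 8 fell, against 15.3% and 13.9% of all genes. The difference had an unadjusted p under 0.05 in 10 of the 27, against 1939 of all 19717 genes. Other lists ran from 0 of 20 for cholesterol synthesis through 6 of 17 for complement to 19 of 21 for lymph node genes. Col1a1 measured 1569, 2997, 1666 and 2159 CPM on chow against 2086, 2551, 2702 and 2327 on the high-fat diet in FMRKO mice, which overlap. It fell in control mice (log2 -1.19 ± 0.40, adjusted p = 0.028), and the difference between the genotypes was 1.4 (unadjusted p = 0.020). The lymph node list had a median of -0.77 in FMRKO and 4.16 in control mice. Its mean log2 CPM was 0.01 to 0.39 in the chow control libraries and 3.84, 0.88, 1.27 and 5.51 in those on the high-fat diet. Their part in the difference of any single gene was not tested.

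**Figure D5:**
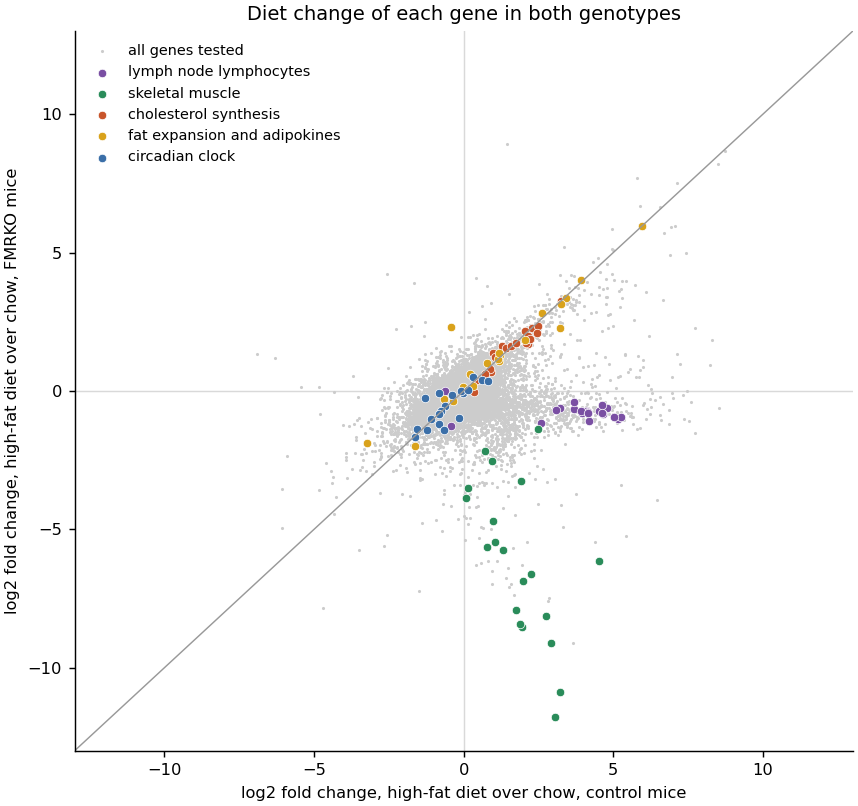
Log2 fold change between the diets in FMRKO mice (y axis) against that in control mice (x axis) for the 19717 genes tested (grey), with 5 lists in colour and the line of equal change. Most fat expansion, cholesterol and clock genes lie near the line, with exceptions such as Cfd (-1.87 in FMRKO and -3.22 in control mice). Lymph node genes lie to the right with a median of 4.16 in control mice. Muscle genes lie far below 0 in FMRKO mice, where they rest on chow FMRKO 5.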

How the data were processed

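RNA of inguinal fat was sequenced from total RNA after depletion of ribosomal RNA, per the labels' protocols. The submitters' processing notes name STAR 2.5.1a, featureCounts 1.4.6p-5 and GRCm38. No source used here says whether counting used strand, and overlapping antisense genes are therefore uncertain. The authors deposited read counts per gene for each library, with CPM and RPKM values beside them. The deposited CPM and RPKM are normalised by the authors without further scaling factors, and they follow from the deposited counts.

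The counts of all 24 libraries were fitted with edgeR 4.0.16 in R 4.3.3 (TMM factors, filterByExpr with a minimum count of 10, 1 mean per group, quasi-likelihood test), and DESeq2 1.42.0 was an alternative. Taking the spread from all groups left 18 residual degrees of freedom, and the biological coefficient of variation was 33.7%. Standard errors were derived from the fold change and the F statistic. RPKM values in the text are group means of counts per length after TMM scaling. The code was tested on simulated data. In each of the 36 within-group pairs the libraries differed by more than sampling noise.

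The comparison, its gene lists and the named genes were chosen with earlier results of these data known. Of 607 genes in 37 lists, 601 passed the filter and 6 were too low (Ccl21a, Il6, Ptgds, Ren1, Scnn1g and Tnnc2). Genes were named by rule: 12 fixed genes; the 12 largest called rises and falls without overlap, at 5 CPM or more in the higher group; the 8 largest rises and falls in mean CPM; per list up to 6 called rises and 6 falls and its first 3 members; and the 6 smallest p-values of the difference between genotypes, at 1 CPM or more. Cry1, Tef and Fdft1 were named after their values were seen. Some members are not reported here by name. Promoter windows are from RefSeq (GRCm38.p6). Alternatives were another tool and scaling, no filter, fewer libraries in the fit, the replicate number as a block, covariates for lymph node and muscle transcripts, and libraries left out.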

Additional observations from a re-analysis of the deposited data

Results flagged for a closer look

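In 216 groups of 4 libraries (the named genes and 8 marker lists on each diet), 15 had 1 library standing apart, by a gap to the nearest other library above Dixon's 95% critical value. Chance flags about 1 in 20 groups. The skeletal muscle list stood apart in chow FMRKO 5, with a mean log2 CPM of 8.81 against -0.12 to 0.56 in the other chow libraries. In that library Myh4 measured 5907 CPM, Ttn, the gene of titin, 10808 CPM against at most 80.9, and Acta1, skeletal actin, 3246 CPM against at most 42.3. Ciart was high there too, at 8.16 CPM against 4.20 to 4.71, as was Tph2 at 0.507 CPM, while Tuba1a was low at 99.5 CPM against 143 to 150.

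Chow FMRKO 2 was high in Slc43a1 (228 CPM against 127 to 130), Cd59a (41.7 CPM against 31.6 to 33.1) and, by a small margin, Pfkl (67.3 CPM against 64.6 to 65.1). Pkd2l1 was detected in chow FMRKO 3 alone among chow libraries, at 0.0323 CPM.

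On the high-fat diet, FMRKO 3 was high in Cpt1a (182 CPM against 152 to 155). High-fat diet FMRKO 4 was low in Bgn (541 CPM against 821 to 857) and Dbp (19.3 CPM against 30.4 to 32.5), and FMRKO 1 held 1.48 CPM of Myh4 against at most 0.086.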

How the results depend on the processing

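Of 79 named genes that passed the test, 79 kept their call with RLE size factors, 76 of 76 with a value did so in DESeq2, 73 did when libraries with lymph node transcripts were left out and 74 when those with muscle transcripts were. In the lymph node libraries alone 49 kept it, 29 lost it and 1 reversed. Leaving out single FMRKO libraries gave 1921 to 3026 genes higher and 1389 to 2366 lower, 475 to 720 at least 2-fold higher and 326 (without chow FMRKO 5) to 694 at least 2-fold lower. In control mice it gave 2106 to 2976 higher and 2220 to 3094 lower, and for the difference between genotypes 0 in each case, against 6 genes in DESeq2. Fitting only the 8 FMRKO libraries gave 1868 genes higher and 1334 lower. Without the corticosterone libraries, the 16 libraries on chow or high-fat diet gave 2074 higher and 1514 lower. The lymph node libraries alone, 2 a group, gave 823 higher and 364 lower, 371 and 99 of them by at least 2-fold. This setting has fewer samples.

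The labels do not say whether the replicate numbers pair the libraries. Same-numbered FMRKO libraries correlated in their deviations at 0.10, 0.59 and -0.27. Chow FMRKO 1 and high-fat diet FMRKO 4, with different numbers and both with lymph node transcripts, correlated at 0.72. Shared tissue content can thus enter these values, which cannot decide the question. With the replicate number as a block 2976 genes were higher and 1652 lower, 700 and 376 by at least 2-fold.

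Signs turned for muscle genes and for genes that had not passed the test, and the cause was not tested. Without the muscle libraries the log2 fold changes were 1.80 for Myh4, 0.12 for Acta1 and 0.07 for Per1. With the replicate block Myh4 had 0.05. With covariates it had 0.51. In the lymph node libraries alone Myh4 had 3.15, Arntl -0.08, Per1 0.05 and Cry1 0.07. Without the lymph node libraries Fkbp5 had 0.13, Pparg 0.00 and Tnf 0.32. Leaving out single libraries gave -0.21 to 0.13 for Fkbp5, -0.14 to 0.23 for Pparg, -0.25 to 0.06 for Srebf2, -1.09 to 0.35 for Tnf, -0.24 to 0.00 for Cry1, -0.23 to 0.13 for Per1, -5.10 to 0.19 for Acta1 and -15.10 to 1.90 for Myh4.

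With 4 libraries a group, genes at 1 CPM or less on chow rest on few counts.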
